A study of Mus musculus with 16 samples.

Results

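The messenger RNAs of 9 genes of liver sugar metabolism and its hormonal control were followed through the livers of normal mice and of mice lacking Zfp36l1 in the liver: Pck1, G6pc, Fbp1, Pklr, Khk, Slc2a2, Igfbp1, Irs2 and Ppargc1a. They were chosen by symbol, and each matched 1 of the 35275 Ensembl gene IDs of the deposited table. All 9 were among the 11298 genes kept for testing. RNA came from whole liver of mice with intact Zfp36l1 (WT) or with a deletion of it confined to the liver (L1 LKO, written LKO here), and each genotype received a control diet or an ethanol diet, abbreviated EtOH in the labels. The 4 groups thus were WT control, WT ethanol, LKO control and LKO ethanol, with 4 libraries each, numbered 1 to 4 in the order of the records. Sex, age, strain, diet composition, length of feeding and the driver of the deletion are missing from the labels, and no record says whether a library stands for 1 animal or a pool. The ZFP36L1 protein attaches to AU-rich elements in transcripts and speeds their decay, and the question addressed was whether its loss alters the response of the liver to ethanol.

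The liver releases glucose between meals and takes it up after them. Pck1, Fbp1 and G6pc encode the enzymes of the steps by which gluconeogenesis bypasses glycolysis, whereas Pklr encodes the pyruvate kinase that ends glycolysis in hepatocytes and is switched on by sugar through the transcription factor ChREBP. Insulin lowers Igfbp1, Pck1 and G6pc by driving FOXO1 out of the nucleus, and glucagon and fasting raise them, in part with the coactivator encoded by Ppargc1a.

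Values are FPKM, fragments counted for a gene scaled to its length and to the library's fragments, and group values are mean ± SD. Differences are log2 changes of FPKM + 1 from limma with their standard error (SE), and a gene was called when its p-value, adjusted over all 11298 genes, was under 0.05. Total reads ranged from 9890475 in WT ethanol library 2 to 24768569, with at least 19069903 in each of the 15 other libraries. WT ethanol library 2 stood apart: its rank correlation with the others across genes was 0.664 to 0.721, against 0.858 to 0.985 among the others. Mitochondrial transcripts took 22.5% of its reads, against 3.64 to 6.97% elsewhere, so values without it are given beside the results it moved most. Zfp36l1 itself was at 9.30 to 25.5 FPKM in the WT libraries and at 0.572 to 1.76 FPKM in the LKO libraries. P-values measure the spread between these libraries, and in whole liver fewer cells of a type and less RNA per cell cannot be told apart.

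In WT livers on ethanol, Pklr and G6pc fell 8.01-fold and 9.74-fold on the tested scale. With WT ethanol library 2 left out, Pklr fell 4.02-fold and G6pc was 5.04-fold lower but no longer called. With all libraries these were 2 of the 9 genes, both lower. Of all genes tested, 4.18% were called in this comparison and 1.59% were called lower. At an unadjusted p under 0.05 there were 5 of the 9, beside 19.7% of all genes. With that library left out, the 2 genes called were Pklr, lower, and Igfbp1, higher, beside 9.48% of all genes. Averaged over both genotypes, Pklr fell and Igfbp1, the insulin-suppressed binding protein for insulin-like growth factors, rose, against 7.78% of all genes called, and without that library the same 2 genes were called, against 20.5%. In LKO livers on ethanol none of the 9 was called, and neither was any between the genotypes on either diet. The median log2 change of the 9 genes on ethanol was -0.95 in WT and -0.23 in LKO, beside -0.02 and 0.06 over all genes tested. Without that library the WT median was -0.57, beside 0.17. The difference between these responses passed the adjusted threshold for no gene of the table, which depended on the setting: 506 genes (4.48%) passed with libraries weighted by their spread and 6 without WT ethanol library 1, none of them among the 9.

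**Figure D1:**
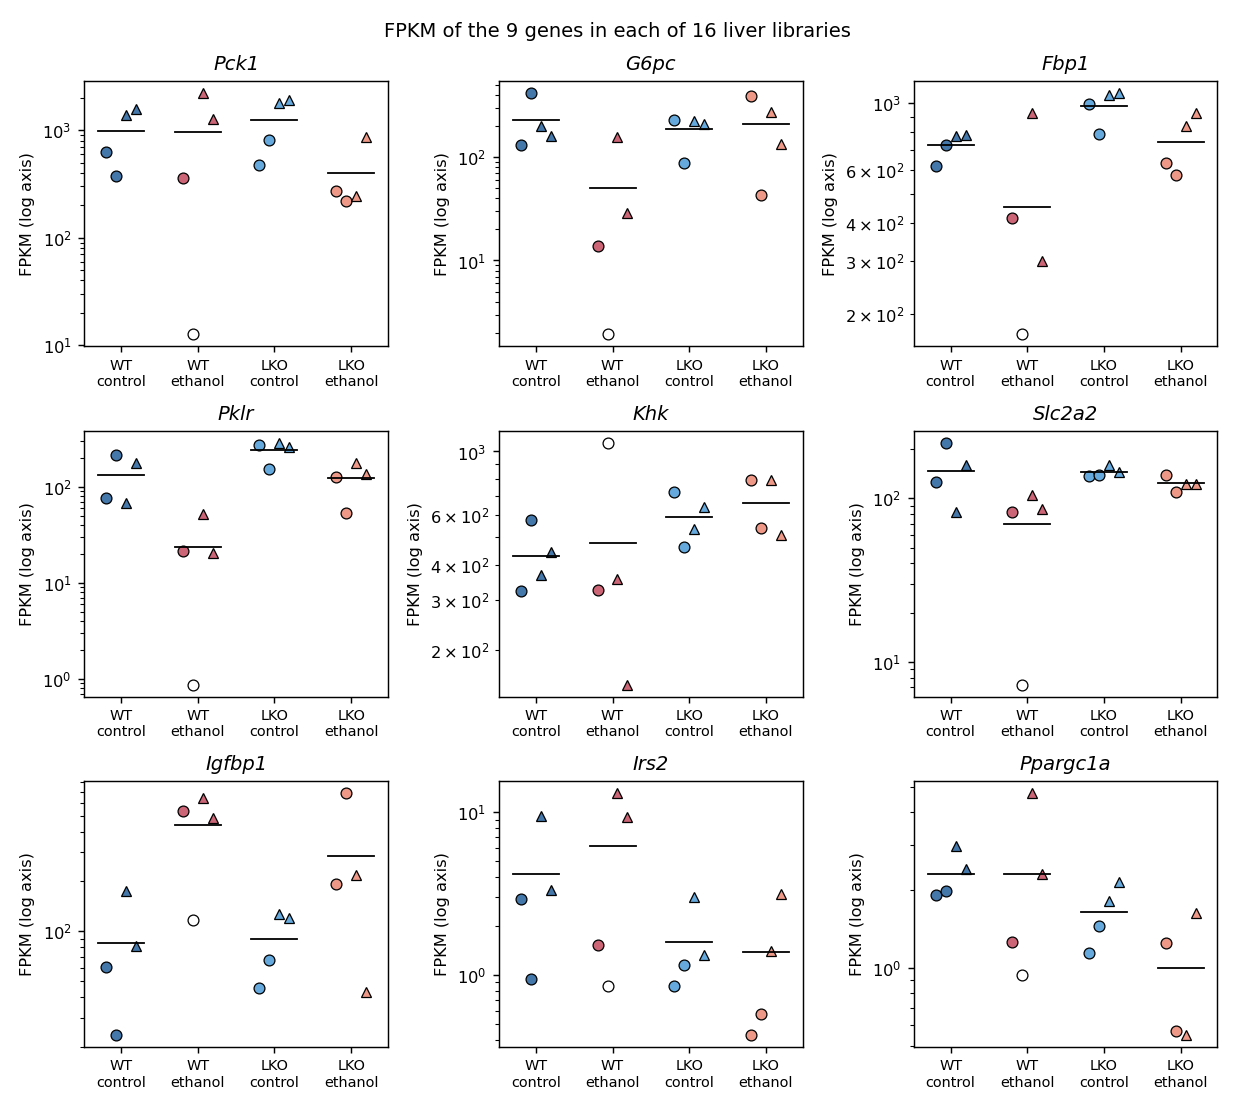
FPKM of each of the 9 genes on log axes, 1 point per library and 4 libraries per group, with bars at the group means. Circles are libraries 1 and 2 of a group, triangles are libraries 3 and 4, and the white circle is WT ethanol library 2, which is lowest of its group for 8 of the 9 genes and highest for Khk.

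Pck1 (chromosome 2, 173153048 to 173159273 on GRCm38) encodes the phosphoenolpyruvate carboxykinase of the cytosol, which commits carbon from the citric acid cycle to glucose. It was the most abundant of the 9 by mean FPKM over the 16 libraries. The WT control libraries held 621, 371, 1372 and 1564 FPKM, and the WT ethanol libraries 362, 12.6, 2213 and 1262. The LKO control libraries held 478, 817, 1799.5 and 1914 FPKM, and the LKO ethanol libraries 274, 219, 244 and 860. Every pair of groups compared overlapped, and the 2 highest control values of each genotype came from libraries 3 and 4. On ethanol the log2 difference was -1.68 ± 1.11 (SE) in LKO (limma, adjusted p = 0.744) and -1.29 ± 1.11 in WT (adjusted p = 0.556). The WT difference became 0.26 without WT ethanol library 2, so its sign rested on that library. LKO differed from WT on ethanol by -0.03 with all libraries and by -1.58 without it (adjusted p = 0.258).

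G6pc (chromosome 11, 101367561 to 101377903) encodes the catalytic subunit of glucose-6-phosphatase, the last step before glucose leaves the hepatocyte. The 300 bases around its start site (RefSeq, GRCm38.p6, chr11:101367466-101367765, plus strand) are shown because the gene was called and because they hold the FOXO-type insulin response core CAAAACA on the opposite strand, read here as the capitals TGTTTTG.
G6pc promoter: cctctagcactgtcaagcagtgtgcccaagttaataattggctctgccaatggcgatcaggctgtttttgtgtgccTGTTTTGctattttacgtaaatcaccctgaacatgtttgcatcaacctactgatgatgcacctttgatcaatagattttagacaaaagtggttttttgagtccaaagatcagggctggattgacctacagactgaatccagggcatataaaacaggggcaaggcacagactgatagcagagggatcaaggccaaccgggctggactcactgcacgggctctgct
The match began 174 bases before the RefSeq start site. The GENCODE start of G6pc given above lies inside this window, upstream of the RefSeq start. G6pc was at 131, 417, 202 and 160.4 FPKM in WT control and at 13.7, 1.93, 156 and 28.7 FPKM in WT ethanol. In the LKO control libraries it was at 231, 86.9, 225 and 209.9 FPKM, and in the LKO ethanol libraries at 387, 42.8, 273 and 134. WT ethanol library 3, at 156 FPKM, lay within the control range, and the other 3 WT ethanol libraries lay below every library of every other group. The log2 difference on ethanol was -3.28 ± 0.89 (SE) in WT (limma, adjusted p = 0.0471) and -0.16 ± 0.89 in LKO (adjusted p = 0.9996). LKO stood 2.90 ± 0.89 above WT on ethanol (adjusted p = 0.252), and the interaction, the LKO response minus the WT response, was 3.13 ± 1.26 (unadjusted p = 0.0239, adjusted p = 0.927).

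The call of G6pc depended on the setting. Without WT ethanol library 2 the log2 difference was -2.33 (adjusted p = 0.0643), and the call held in only 2 of the 16 fits that left out 1 library, those without WT ethanol library 3 (-4.25, adjusted p = 0.00819) and without LKO ethanol library 2 (-3.28, adjusted p = 0.0346). In the 14 others the adjusted p of G6pc ran from 0.0519 to 0.144, with the log2 difference between -3.50 and -2.33. G6pc was called in 4 of the 9 other settings, quantile scaling, median of ratios and a model term parting libraries 1 and 2 from libraries 3 and 4, with and without WT ethanol library 2. Its adjusted p over the 9 settings ran from 0.0292 to 0.198. On ethanol LKO stood 1.95 ± 0.76 above WT for G6pc without WT ethanol library 2 (adjusted p = 0.230), and the interaction was 2.18 ± 1.03 (unadjusted p = 0.0523, adjusted p = 0.968).

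Fbp1 (chromosome 13, 62864753 to 62888282, minus strand) encodes fructose bisphosphatase, the gluconeogenic step opposed to phosphofructokinase. It was the steadiest of the gluconeogenic enzymes in control livers. WT control libraries held 618, 728, 779 and 784 FPKM, and LKO control libraries 995, 788, 1063 and 1081. These groups did not overlap, though WT reached 784 and LKO began at 788, and the log2 difference was 0.43 ± 0.38 (SE; limma, adjusted p = 0.9997). Of all genes tested, 1.61% were higher in LKO control without overlap, so 1 of the 9 genes is a small count to set beside it. On ethanol the WT libraries spread over 414, 170.5, 929 and 299 FPKM and the LKO libraries over 632, 579, 843 and 929, so the groups overlapped. The ethanol difference was -0.95 ± 0.38 in WT (adjusted p = 0.175) and -0.41 ± 0.38 in LKO (adjusted p = 0.881), neither called. Without WT ethanol library 3, the highest of its group, the WT difference of Fbp1 was -1.39 (adjusted p = 0.0220), and without WT ethanol library 2, the lowest, it was -0.57 ± 0.30 (adjusted p = 0.244).

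Pklr (chromosome 3, 89136142 to 89146784) had the clearest response of the 9 genes. WT control libraries held 75.5, 213, 67.6 and 176 FPKM, and WT ethanol libraries 21.6, 0.871, 52.0 and 20.6. Pklr was the single gene of the 9 whose WT groups did not overlap on ethanol, the highest ethanol library at 52.0 lying under the lowest control library at 67.6. Of all genes tested, 10.1% had WT groups without overlap and 4.45% were lower without overlap. LKO control libraries held 273, 153, 284 and 259 FPKM, and LKO ethanol libraries 125, 53.2, 175 and 135, overlapping in the range of 153 to 175. The log2 difference on ethanol was -3.002 ± 0.74 (SE) in WT (limma, adjusted p = 0.0302), -1.06 ± 0.74 in LKO (adjusted p = 0.765) and -2.03 ± 0.52 averaged over the genotypes (adjusted p = 0.0241).

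The fall of Pklr in WT was smaller without WT ethanol library 2, at -2.01 ± 0.47 (adjusted p = 0.0158). It was no longer called when WT control library 1 was left out (-3.21, adjusted p = 0.0587), nor without WT control library 2 (-2.72, adjusted p = 0.0993), WT control library 4 (-2.81, adjusted p = 0.0963) or WT ethanol library 4 (-3.18, adjusted p = 0.0532). The average over the genotypes was not called without control library 2 of WT (adjusted p = 0.0547), WT control library 4 (adjusted p = 0.0553), LKO control library 3 (adjusted p = 0.0503) or LKO ethanol library 2 (adjusted p = 0.0617), with Pklr between -1.99 and -1.86. The order of group means, from the lowest, was WT ethanol (23.8 ± 21.1), LKO ethanol (122 ± 50.9), WT control (133 ± 72.8) and LKO control (242 ± 60.3). LKO ethanol and WT control differed by less than their SD.

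The genotypes separated for Pklr on the ethanol diet. Its lowest LKO library, at 53.2 FPKM, lay just above its highest WT library, at 52.0. The log2 difference was 2.93 ± 0.74 (SE), with a 95% interval of 1.38 to 4.49, and did not pass the adjusted threshold (limma, unadjusted p = 0.0010, adjusted p = 0.172). It was 1.94 without WT ethanol library 2 (adjusted p = 0.0988) and 3.13 without WT ethanol library 1, where it was called (adjusted p = 0.0466). On the control diet LKO stood 0.99 ± 0.74 above WT (adjusted p = 0.9997). The interaction was 1.94 ± 1.04 (adjusted p = 0.927), and 0.94 ± 0.63 without WT ethanol library 2 (adjusted p = 0.968), so a difference in the response of Pklr between the genotypes was not established.

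Khk (chromosome 5, 30921431 to 30931248) encodes ketohexokinase, which phosphorylates fructose on its entry into the hepatocyte. WT libraries held 324, 576, 367 and 444 FPKM on the control diet and 327, 1069, 358 and 152 on ethanol. LKO libraries held 720, 461, 534 and 637 FPKM on the control diet and 797, 537, 796 and 509 on ethanol. WT ethanol library 2 was the highest of all 16, and the 3 other WT ethanol libraries lay below every LKO library. The log2 difference of LKO from WT on ethanol was 0.79 ± 0.43 (SE; limma, adjusted p = 0.484), and without WT ethanol library 2 it was 1.30 ± 0.30 (adjusted p = 0.0935). On ethanol Khk differed from control by -0.17 in WT (adjusted p = 0.860) and by 0.15 in LKO (adjusted p = 0.995), with 95% intervals of -1.08 to 0.74 and -0.75 to 1.06. The WT difference was -0.68 ± 0.30 without WT ethanol library 2 (adjusted p = 0.166). In the order of means, WT control, WT ethanol, LKO control and LKO ethanol, each neighbour differed from the next by less than its SD. That order rested on WT ethanol library 2, without which the WT ethanol mean of Khk was 279 ± 111 FPKM (n = 3), below WT control at 428 ± 111.

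Slc2a2 (chromosome 3, 28697903 to 28731359) encodes GLUT2, the transporter that carries glucose in either direction across the hepatocyte membrane. WT libraries held 126, 217, 82.2 and 159 FPKM on the control diet and 82.0, 7.25, 105 and 85.7 on ethanol. LKO libraries held 137, 139, 159 and 145 FPKM on the control diet and 139, 109.7, 123 and 123 on ethanol. All 8 LKO libraries thus stayed between 109.7 and 159 FPKM, and the LKO ethanol libraries all lay above the WT ethanol libraries. Pklr and Slc2a2 were the genes of the 9 with higher LKO ethanol values without overlap, 2 of 9, beside 0.894% of all genes tested. The log2 difference of LKO from WT on ethanol was 1.31 ± 0.58 (SE; limma, unadjusted p = 0.0373, adjusted p = 0.395). It was 0.44 ± 0.25 without WT ethanol library 2 (adjusted p = 0.355), whose Slc2a2 value of 7.25 FPKM was the lowest of all. On ethanol Slc2a2 differed from control by -1.47 in WT (adjusted p = 0.168), or by -0.60 without that library (adjusted p = 0.138), and by -0.23 in LKO (adjusted p = 0.995).

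Igfbp1 (chromosome 11, 7197782 to 7202546) encodes a secreted protein that binds insulin-like growth factors and is made by hepatocytes when insulin is low. Its start region (RefSeq, GRCm38.p6, chr11:7197537-7197836, plus strand) is shown as that of the gene of the 9 that rose, with the core CAAAACA in capitals, 108 bases before the start site.
Igfbp1 promoter: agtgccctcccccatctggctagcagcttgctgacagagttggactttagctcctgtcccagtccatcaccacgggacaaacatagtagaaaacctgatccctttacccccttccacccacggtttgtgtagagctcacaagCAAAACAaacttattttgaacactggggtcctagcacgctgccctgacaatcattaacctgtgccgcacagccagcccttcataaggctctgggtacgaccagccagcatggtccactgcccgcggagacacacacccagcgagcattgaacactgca
WT control libraries held 60.5, 23.6, 175 and 81.1 FPKM, and WT ethanol libraries 533, 117, 636 and 482. LKO control libraries held 45.1, 67.1, 128 and 121 FPKM, and LKO ethanol libraries 194, 683, 218 and 42.6. On ethanol 3 of 4 WT libraries and 3 of 4 LKO libraries lay above every control library, while WT ethanol library 2 and LKO ethanol library 4 lay within the control range. Averaged over the genotypes, Igfbp1 rose by 1.81 ± 0.52 on the log2 scale (SE; limma, adjusted p = 0.0425). The rise was 2.45 ± 0.74 in WT (adjusted p = 0.0729) and 1.17 ± 0.74 in LKO (adjusted p = 0.725), neither called alone, and the interaction was -1.28 ± 1.05 (adjusted p = 0.927), or -1.83 ± 0.99 without WT ethanol library 2 (adjusted p = 0.968).

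The averaged rise of Igfbp1 was called in 3 of the 16 fits without 1 library, those without WT control library 3 (2.04, adjusted p = 0.0287), WT ethanol library 2 (2.09, adjusted p = 0.00876) and LKO ethanol library 4 (2.16, adjusted p = 0.00894). In the 13 others the log2 difference was 1.501 to 1.91 and the adjusted p was 0.0557 to 0.0969. In WT alone Igfbp1 was called without WT ethanol library 2 (3.002 ± 0.73, adjusted p = 0.0200), LKO ethanol library 2 (2.45, adjusted p = 0.0452) or LKO ethanol library 4 (2.45, adjusted p = 0.0395). The order of means was WT control (85.0 ± 64.3), LKO control (90.2 ± 40.4), LKO ethanol (284 ± 277) and WT ethanol (442 ± 226). Only between LKO control and LKO ethanol, among neighbours in this order, was the step larger than the smaller SD, and it remained below the larger. Leaving out WT ethanol library 2 gave a WT ethanol mean of 550.5 ± 78.2 FPKM (n = 3) for Igfbp1, and its step from LKO ethanol was then also larger than the smaller SD and below the larger.

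Irs2 (chromosome 8, 10984681 to 11008458, minus strand) encodes an adaptor through which the insulin receptor signals in hepatocytes, and insulin lowers its transcription. Its start region (RefSeq, GRCm38.p6, chr8:11008880-11009179, minus strand) is shown because the E-box CACGTG, 44 bases before the start site, is followed after 1 further base by TGTTTTG, 37 bases before it. Both are in capitals and do not overlap, and TGTTTTG is CAAAACA read from the opposite strand. The distances are from the RefSeq start, and the whole window lies upstream of the GENCODE span of Irs2 given above.
Irs2 promoter: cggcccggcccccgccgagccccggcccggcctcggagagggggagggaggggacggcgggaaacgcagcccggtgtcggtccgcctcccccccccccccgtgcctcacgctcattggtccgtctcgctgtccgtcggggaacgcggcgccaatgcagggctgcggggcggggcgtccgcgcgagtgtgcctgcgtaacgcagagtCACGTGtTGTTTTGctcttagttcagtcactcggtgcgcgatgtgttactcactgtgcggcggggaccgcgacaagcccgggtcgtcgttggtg
Irs2 was a low transcript. WT libraries held 2.92, 0.948, 9.42 and 3.31 FPKM with control diet and 1.52, 0.854, 13.1 and 9.42 with ethanol. LKO libraries held 0.852, 1.16, 3.03 and 1.33 FPKM with control diet and 0.429, 0.577, 1.39 and 3.14 with ethanol. Libraries 3 and 4 were above libraries 1 and 2 in all 4 groups, and the genotypes overlapped on either diet. The log2 difference of LKO from WT was -0.80 ± 0.60 (SE; limma, adjusted p = 0.9997) on the control diet and -1.23 ± 0.60 (adjusted p = 0.429) on ethanol, or -1.72 ± 0.58 without WT ethanol library 2 (adjusted p = 0.184). Ethanol differences were 0.25 in WT (adjusted p = 0.851), or 0.74 without that library (adjusted p = 0.450), and -0.19 in LKO (adjusted p = 0.997). As FPKM values near 1 were compared after adding 1, these differences understate the ratio between libraries.

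Ppargc1a (chromosome 5, 51454250 to 51567726, minus strand) encodes PGC-1alpha, a coactivator of gluconeogenic genes and of mitochondrial biogenesis. WT libraries held 1.91, 1.99, 2.96 and 2.40 FPKM on the control diet and 1.26, 0.938, 4.74 and 2.31 on ethanol. LKO libraries held 1.14, 1.45, 1.82 and 2.16 FPKM on the control diet and 1.25, 0.572, 0.551 and 1.63 on ethanol. The lowest of its values were in LKO ethanol libraries 2 and 3, and all groups compared overlapped. The log2 difference of LKO from WT on ethanol was -0.63 ± 0.29 (SE; limma, unadjusted p = 0.0408, adjusted p = 0.401), or -0.85 without WT ethanol library 2 (adjusted p = 0.174). On ethanol Ppargc1a differed from control by -0.12 in WT (adjusted p = 0.845) and by -0.42 in LKO (adjusted p = 0.753).

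Between the genotypes, none of the 9 genes passed limma's adjusted threshold on the control diet, beside 0.00885% of all genes, and none on ethanol, beside 0.0797%. With voom on reads recovered from the FPKM steps the counts were also 0. At an unadjusted p under 0.05 there were 0 of 9 on the control diet, beside 3.45% of all genes, and 5 of 9 on ethanol, beside 11.9%: Pklr, G6pc, Slc2a2 and Fbp1, all higher in LKO, and Ppargc1a, lower. For ethanol in LKO the adjusted and the unadjusted counts were 0 of 9, beside 0.425% and 9.19% of all genes, and voom gave 0. For the interaction 1 of 9 had an unadjusted p under 0.05, G6pc, beside 3.2%, and limma called 0 of 9, beside 0% of all genes, as did voom. Without WT ethanol library 2 the unadjusted counts were 1 of 9 between the genotypes on the control diet (9.6% of all genes), 6 of 9 on ethanol (17.1%), 2 of 9 for ethanol in LKO (19%) and 0 of 9 for the interaction (4.42%), and limma's adjusted counts stayed at 0 of 9 in all 4. The WT ethanol libraries enter the ethanol effect in WT, its average over the genotypes, the genotype effect on ethanol and the interaction. A low or high value there moves all of these together. The plot of differences with their intervals shows this for library 2 in the comparisons drawn. All groups shared 1 spread estimate per gene, so leaving out a library also changed calls in comparisons without it. For ethanol in LKO 48 of all genes were called with all libraries and 409 without WT ethanol library 2, at the same median log2 change of 0.06.

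**Figure D2:**
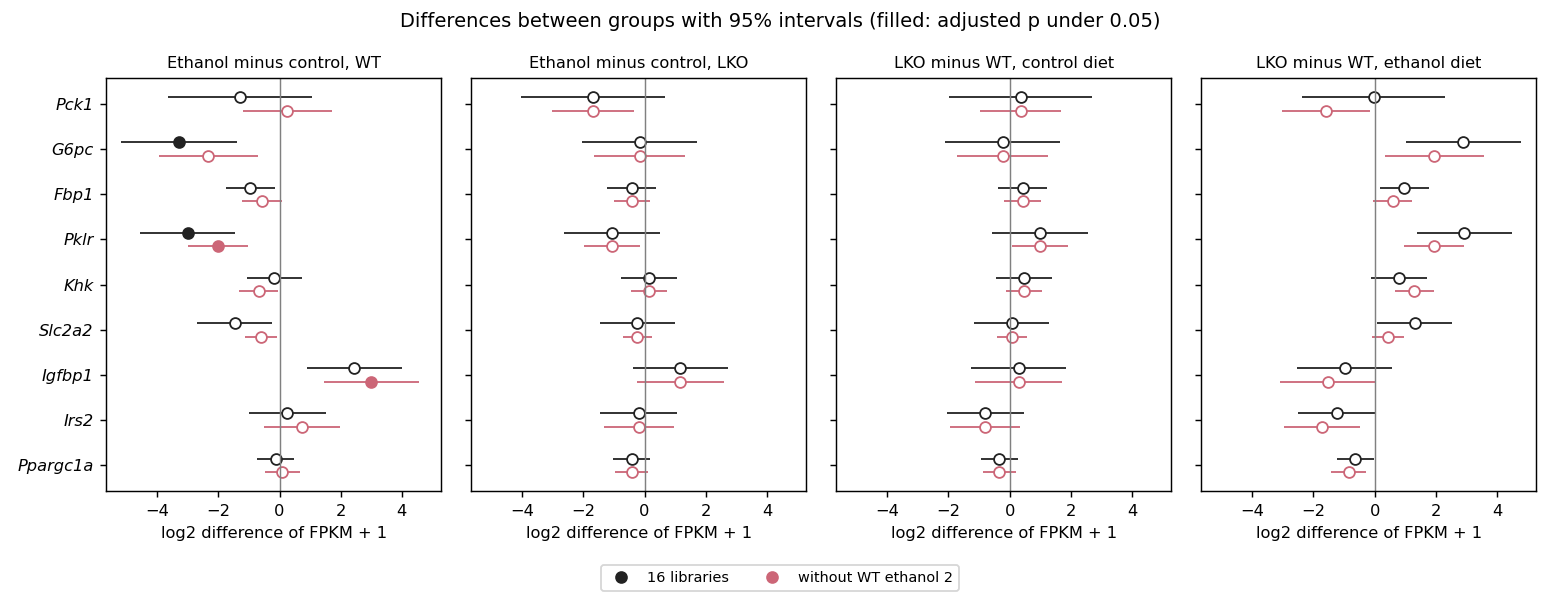
Log2 differences of FPKM + 1 with 95% intervals for the 9 genes in 4 comparisons, from all 16 libraries (black) and without WT ethanol library 2 (red), filled where the adjusted p was under 0.05. Pklr in WT is filled in both, G6pc only with all libraries and Igfbp1 only without that library, and Pck1 in WT lies at -1.29 in one and at 0.26 in the other.

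Within groups the libraries also fell on opposite sides of a first component of variation. It was computed without the 9 genes and without WT ethanol library 2, and took 40.0% of the variance within groups of the 15 other libraries. WT ethanol library 2 was placed on it afterwards. The split was by number in every group, with 1 and 2 opposite 3 and 4, and no label names a batch. Both libraries 3 and 4 were above both libraries 1 and 2 in 4 of 4 groups for Irs2, as for Zfp36l1 itself, and in 3 of 4 groups for Pck1, Fbp1 and Ppargc1a. The same held in 2 groups for Igfbp1 and Slc2a2, in 1 for G6pc and Pklr, and in 0 for Khk.

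Each comparison was therefore also read within a side, with 2 libraries against 2 and no test. The values given without WT ethanol library 2 set 1 library against 2. Pklr was lower on ethanol on both sides, by -4.30 for libraries 1 and 2 (-2.50 without WT ethanol library 2) and -1.70 for libraries 3 and 4 in WT, and by -1.31 and -0.81 in LKO. G6pc was lower in WT on both sides, by -5.16 (-4.00 without that library) and -1.41, and differed by -0.13 and -0.18 in LKO. Igfbp1 was higher in WT on both sides, by 2.69 (3.78 without that library) and 2.21, but in LKO by 2.70 for libraries 1 and 2 and by -0.36 for libraries 3 and 4. Pck1 was lower on ethanol in LKO on both sides, by -1.35 and -2.01, and in WT by -2.78 (-0.41 without that library) on one and 0.19 on the other.

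With a term for the side in the model and WT ethanol library 2 left out, more of the 9 genes were called, as were more of all genes. The side was taken from the expression values of these same libraries and is not a label. The p-values of this fit can therefore be too small, and its calls are given as a description. On ethanol in WT 3 of 9 were called, Pklr and G6pc lower and Igfbp1 higher, beside 19.7% of all genes, 15% higher and 4.7% lower. Pck1 was called lower on ethanol in LKO (-1.68, adjusted p = 0.0108, beside 10.7% of all genes called and 4.14% called lower). Pklr (2.003, adjusted p = 0.0463) and Khk (1.28, adjusted p = 0.0470) were called higher in LKO than in WT on ethanol, beside 1.58% of all genes called and 0.257% called higher. Averaged over the genotypes, Pck1 (-0.84, adjusted p = 0.0245) and Fbp1 (-0.52, adjusted p = 0.0403) joined Pklr and Igfbp1, so that 3 of 9 were lower and 1 of 9 higher, beside 32.6% of all genes called, 23.3% higher and 9.32% lower.

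**Figure D3:**
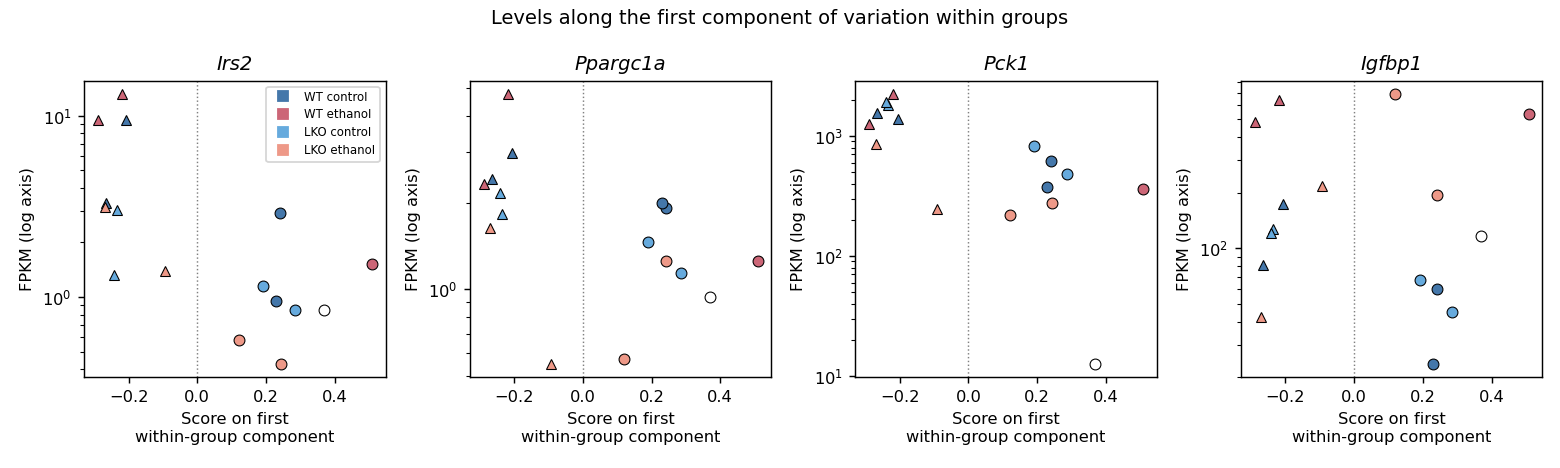
FPKM (log axes) of Irs2, Ppargc1a, Pck1 and Igfbp1 against each library's score on the first component of variation within groups, circles for libraries 1 and 2 and triangles for libraries 3 and 4 of each group, with WT ethanol library 2 in white. The component was computed without that library, which was placed on it afterwards. In every group the Irs2 triangles lie above the circles, whereas the 2 highest Igfbp1 values of LKO ethanol, 683 and 218 FPKM, are a circle and a triangle.

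Because the deleted protein binds AU-rich elements, the 3′ untranslated regions of the 9 genes were searched for the 7-mer TATTTAT on the sense strand, in 1 GENCODE M21 transcript per gene. Igfbp1 and Ppargc1a held 2 matches each, G6pc, Irs2 and Slc2a2 1 each, and Pck1, Fbp1, Pklr and Khk none, so 5 of 9 genes held a match, beside 29.1% of 10523 kept protein-coding genes. These regions ran from 201 bases in Khk to 3930 bases in Ppargc1a, and length was not adjusted for. The sites of the called genes Igfbp1 and G6pc are shown with the 7-mer in capitals.
Igfbp1 site 1: agtatatagtaTATTTATactctggagca
Igfbp1 site 2: aagctggtttgTATTTATtcactgtaagt
G6pc site 1: aatggtaaagcTATTTATtaaaaattctt
The Igfbp1 sites began 53 and 155 bases into the region, and the G6pc site 972 bases into it. The log2 differences of LKO from WT among the 5 genes with a match went both ways. On ethanol they were -0.98 for Igfbp1, -0.63 for Ppargc1a, 2.90 for G6pc, -1.23 for Irs2 and 1.31 for Slc2a2, and none passed the adjusted threshold. In the fit without WT ethanol library 2 the signs were the same and the values were -1.54 for Igfbp1, -0.85 for Ppargc1a, 1.95 for G6pc, -1.72 for Irs2 and 0.44 for Slc2a2, none of them called. Leaving out any 1 library moved Igfbp1 between -1.60 (LKO ethanol library 2) and -0.28 (LKO ethanol library 4). A match of letters is not evidence of binding.

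The start regions of the 9 genes, 250 bases before to 50 after 10 annotated starts, since Pklr has 2, were searched on both strands for 5 motifs. CAAAACA, the core of insulin response elements, was found in 3 of 9 genes, G6pc, Igfbp1 and Irs2, beside 6.28% of 32851 promoters in the RefSeq table. The E-box CACGTG was found in Irs2 and, 71 bases before the RefSeq start but inside the GENCODE span, in Khk, beside 7.15% of promoters. GTAAACA (3.65% of promoters), TGACGTCA (1.79%) and TGACGCA (2.12%) were found in none, which says only that these letters are not in these windows. The 3 genes with CAAAACA did not move together on ethanol in WT, where G6pc was at -3.28, Igfbp1 at 2.45 and Irs2 at 0.25.

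Beyond the 9 genes, 12 lists of sugar and insulin genes gave 119 further genes that were kept and tested. On ethanol in WT 6 of the 119 were called, 2 higher and 4 lower, beside 4.18% of all genes, 2.58% higher and 1.59% lower. The median of the 119 was -0.31 beside -0.02 for all genes. That median was -0.01 without WT ethanol library 2, beside 0.17. Mlxipl, which encodes ChREBP, the sugar-sensing activator of Pklr, fell by 1.97 ± 0.48 (SE) on the log2 scale (limma, adjusted p = 0.0279), from 95.8 ± 51.5 to 24.5 ± 13.6 FPKM. Of the 8 kept ChREBP and sugar-responsive genes 3 were called, all lower, Mlxipl, Pklr and G6pc, with a list median of -1.19, beside 1.59% of all genes called lower. In the fit without WT ethanol library 2 there were 2, Mlxipl and Pklr, and the list median was -0.59 beside 0.17 for all genes. The glycogen-targeting phosphatase subunit Ppp1r3b fell from 108 ± 26.1 to 24.6 ± 7.4 FPKM (-2.11 ± 0.42, adjusted p = 0.0121), and the pyruvate dehydrogenase kinase Pdk1 from 33.3 ± 14.2 to 7.9 ± 5.0 FPKM (-2.08 ± 0.42, adjusted p = 0.0135).

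Sord, whose sorbitol dehydrogenase makes fructose, fell by 1.77 ± 0.46 (SE) on the log2 scale in WT on ethanol (limma, adjusted p = 0.0404). The genes called higher were Trib3, an inhibitor of AKT signalling induced by stress (2.10 ± 0.51, adjusted p = 0.0284), and Pkm, the pyruvate kinase of non-hepatic tissues (1.46 ± 0.40, adjusted p = 0.0471). Without WT ethanol library 2, Pkm was at 1.07 (adjusted p = 0.0540), and the 5 others were still called. Pkm was at 7.5 ± 1.4 FPKM in WT control and 26.0 ± 18.1 in WT ethanol, and at 8.9 ± 3.5 FPKM in LKO control and 9.0 ± 4.1 in LKO ethanol (log2 difference 0.02).

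In LKO on ethanol 1 of the 119 genes was called, the glycogen-targeting subunit Ppp1r3g, which fell by 2.17 ± 0.39 (SE; limma, adjusted p = 0.0211) from 4.6 ± 0.4 to 0.3 ± 0.2 FPKM, beside 0.425% of all genes called and 0.257% called lower. Without WT ethanol library 2 the count in LKO was 4, all lower, beside 3.62% of all genes called and 1.4% called lower. That in WT was 10, 3 higher and 7 lower, beside 9.48% of all genes, 7.23% higher and 2.25% lower. Averaged over the genotypes 14 of the 119 were called, 2 higher and 12 lower, beside 7.78% of all genes, 4.59% higher and 3.19% lower. Without that library 23 were called, 8 higher and 15 lower, beside 20.5% of all genes, 14.8% higher and 5.7% lower. Among the 12 were Klf15, a fasting-responsive activator of gluconeogenesis from amino acids (-1.67 ± 0.46, adjusted p = 0.0329), the liver glycogen synthase Gys2 (-1.06 ± 0.31, adjusted p = 0.0456) and Foxo3 (-0.86 ± 0.21, adjusted p = 0.0202). None of the 119 was called by limma between the genotypes or for the interaction.

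**Figure D4:**
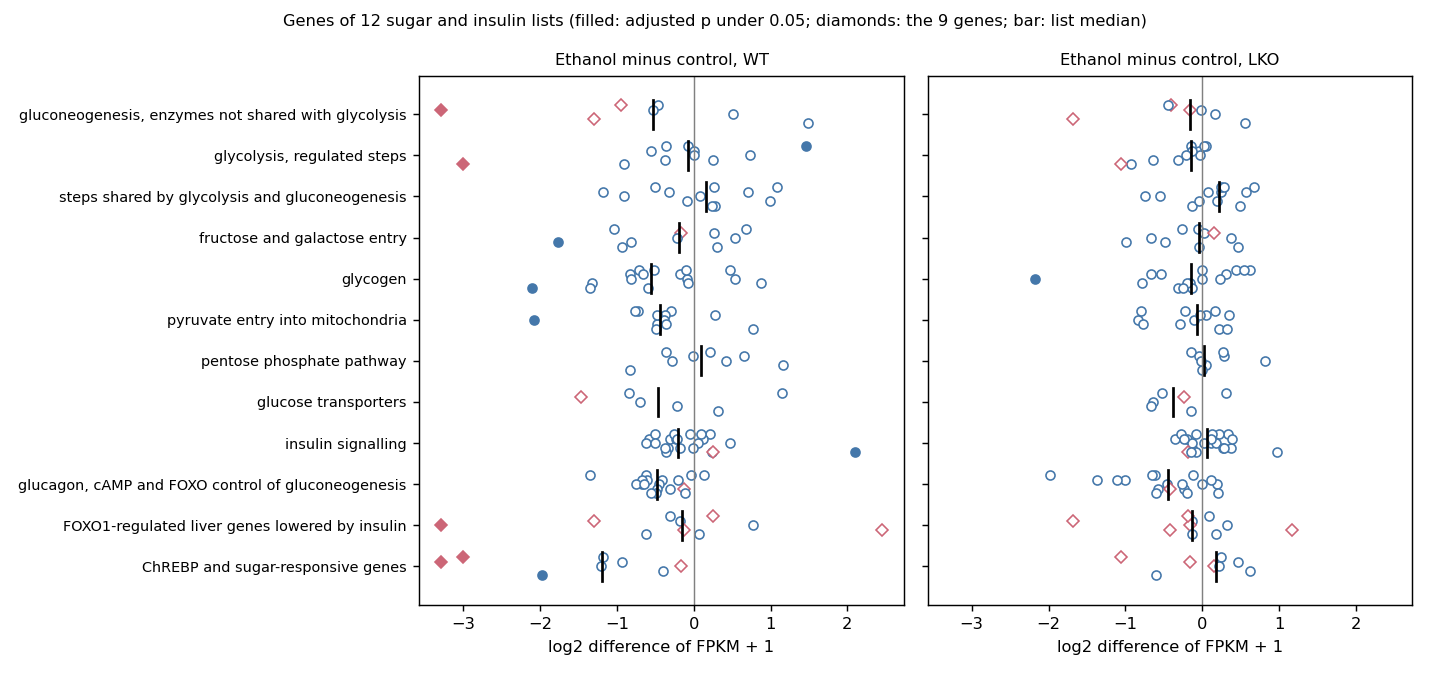
Log2 differences of FPKM + 1 on ethanol in WT (left) and LKO (right) for the kept genes of 12 lists, 1 point per gene, diamonds for the 9 genes, filled where the adjusted p was under 0.05, with a bar at the list median. The ChREBP list has its WT median at -1.19, and in LKO the single filled point is Ppp1r3g in the glycogen list.

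Markers of liver cell types were read beside these results. The 8 hepatocyte markers summed to 56746 to 87146 FPKM over all libraries, and all 4 adipocyte markers and 4 of 5 pancreatic acinar markers stayed below 1 FPKM in every library. The 7 markers of hepatocytes around the central vein summed to 3217 to 5436 FPKM in WT control and 1237 to 1734 in WT ethanol, without overlap, and to 3085 to 5498 in LKO control and 1351 to 4273 in LKO ethanol. In WT 2 of the 7 were called lower on ethanol, beside 1.59% of all genes, and 3 of 7 without WT ethanol library 2, beside 2.25%. In WT this sum was thus lower on ethanol, as were the means of Pklr and G6pc, and its part in their fall was not tested. In LKO its median was 4316 FPKM on the control diet and 2936 on ethanol, while the mean of G6pc was 188 and 209 FPKM. In WT ethanol library 2, the lowest of its group for Pklr and G6pc, the sum was 1444 FPKM. The 6 markers of hepatocytes around the portal vein, where gluconeogenesis is most active, summed to 796 to 1798 FPKM in WT control and to 513 to 3475 in WT ethanol, overlapping. Of the markers of other cell types, 1 of 7 for Kupffer cells and 1 of 7 for stellate cells were called higher in WT on ethanol, beside 2.58% of all genes called higher. The median log2 change was -0.10 for the Kupffer list and 0.07 for the stellate list, beside -0.02 over all genes. Without WT ethanol library 2 the counts were 2 of 7 and 1 of 7, with 2 of 6 for sinusoidal endothelium, beside 7.23%. The medians of the Kupffer, stellate and endothelial lists were then 0.34, 0.75 and 0.57, beside 0.17 over all genes. Also called higher then were 1 of 8 hepatocyte markers and 1 of 6 around the portal vein. Averaged over the genotypes, 2 of 7 markers around the central vein were called lower, beside 3.19% of all genes. Called higher were 1 of 6 for sinusoidal endothelium, 1 of 7 for stellate cells, 1 of 3 kept neutrophil and 1 of 2 kept cholangiocyte markers, beside 4.59%. The part of any cell type in the values of Pkm, Pklr or the other genes was not tested. Kupffer cell markers summed to 93.2 to 277 FPKM in WT control and to 98.2 to 315 in WT ethanol, and stellate cell markers to 43.2 to 139.6 and 19.2 to 179, overlapping. Erythroid markers summed to 2160 FPKM in WT ethanol library 2 and to 100.3 to 286 in the other WT ethanol libraries. Without that library the genotype average called higher 3 of 8 hepatocyte, 3 of 6 endothelial and 1 of 6 portal vein markers, beside 14.8%. The Kupffer, stellate, neutrophil and cholangiocyte lists each had 1 called higher. Called lower were 3 of 7 around the central vein, 1 of 8 hepatocyte, 1 of 5 erythroid and 1 of 2 kept cholangiocyte markers, beside 5.7%.

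Over the 16 libraries, which share groups, sides and depth, the genes with the most similar rank order were named for each of the 9 genes as a description. For Pklr they were Shpk (Spearman rho 0.965), Hcn3 (0.959) and the malic enzyme gene Me1 (0.947). Hcn3 lies on the opposite strand and overlaps the end of Pklr by 711 bases, and since the strand setting of the counting is not given in the sources used here, reads of Pklr may be counted for it. For Slc2a2 they were Gys2 (0.956), Zfp276 (0.915) and the acetyl-CoA carboxylase gene Acaca (0.903). For Pck1 they were Tob1 and Lin52 (0.944 each) and Dolpp1 (0.941), and for Ppargc1a Nup85 (0.965), B3galnt2 (0.938) and Cnnm3 (0.929). For G6pc they included Rnf103 (0.838) and the liver glycogen phosphorylase gene Pygl (0.821), and for Fbp1 they were Gabbr2 (0.862), Acy3 (0.853) and Slc26a1 (0.847). For Igfbp1 they were Arl8a (0.885), Chmp7 (0.879) and Cinp (0.874), for Irs2 Sorbs3 (0.924), Sox12 (0.918) and Plcb3 (0.915), and for Khk Apoc3 (0.803), Lrrc28 (0.800) and Leap2 (0.771). Part of this order rested on WT ethanol library 2, where Khk was highest: over the 15 other libraries Apoc3, Lrrc28 and Leap2 ranked 28, 17 and 39 for Khk (rho 0.761, 0.789 and 0.732), Sorbs3 ranked 23 for Irs2 and Chmp7 14 for Igfbp1.

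Among the 9 genes themselves, Pklr and Slc2a2 ordered the 16 libraries most alike (rho 0.86, and 0.83 over the 15 libraries without WT ethanol library 2). Pck1 and Ppargc1a followed (0.85 and 0.83), and then Fbp1 and Pklr (0.79 and 0.74), Ppargc1a and Irs2 (0.76 and 0.75), G6pc and Pklr (0.75 and 0.70) and Pck1 and Irs2 (0.73 and 0.71). Khk ran opposite to Irs2 (-0.74 and -0.72). Igfbp1 and Pck1, both FOXO1 targets lowered by insulin, were at -0.05 and -0.10, and Pck1 and G6pc at 0.14 and -0.05. Among the 9, Pck1 was thus most like Ppargc1a and Irs2, whereas G6pc and Fbp1 were most like Pklr, or for G6pc without WT ethanol library 2 most like Khk (0.76).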

How the data were processed

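Liver RNA from 16 libraries, 4 per group by the treatment labels, was analysed from the deposited table of FPKM values. Per the submitters' processing notes, fastp, STAR 2.6.1, HTSeq, DESeq2 and mm10 were named, without their roles; the annotation and the strand setting are not given in the sources used here. Libraries were made with standard Illumina protocols, per the labels. FPKM steps gave whole reads within 0.1 for 100% of 20520 genes, and totals of 9890475 to 24768569 reads.

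Genes with FPKM of at least 1 in at least 4 libraries were kept (11298). Group means of log2(FPKM + 1) were fitted with limma 3.58.1 (lmFit, eBayes with trend) in R 4.3.3, with Benjamini-Hochberg adjustment over the kept genes and two-sided tests. Contrasts were ethanol against control in each genotype and averaged, LKO against WT on each diet, and the interaction. The procedure was tested on simulated reads. Symbols, positions and 3′ untranslated regions came from GENCODE M21 on GRCm38, and start regions from RefSeq on GRCm38.p6. The 9 genes, the 12 pathway lists and the 12 marker lists were chosen with earlier results of these data known. From each pathway list at most the 3 called genes with the largest change per contrast were to be named, and for each of the 9 genes the 3 most similar in rank, passing over predicted genes, clones and pseudogenes. 1 of these similar genes is not reported here. Alternatives were a pseudocount of 0.1, no filter, quantile, median of ratios and equal-sum scaling, array weights, voom on the recovered reads, a side term with and without WT ethanol library 2, and leaving out each library. Start regions and figures were handled in Python 3.11.15.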

Additional observations from a re-analysis of the deposited data

Results flagged for a closer look

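In 36 groups of 4 libraries (9 genes in 4 groups), the highest and lowest value of each group were tested against its range, a test that chance passes in about 1 in 20 groups. It marked 2. Pck1 was at 860 FPKM in LKO ethanol library 4, far above the 219 to 274 FPKM of the other libraries of that group. G6pc was at 86.9 FPKM in LKO control library 2, far below the 209.9 to 231 FPKM of the others.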

How the results depend on the processing

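The number of the 9 genes called on ethanol in WT, 2 with all libraries, was 1 with a pseudocount of 0.1 or equal-sum scaling, 0 without a filter or with voom on recovered reads, and 4 with array weights. It was 0 to 3 when 1 library was left out. For ethanol averaged over the genotypes, also 2, it was 1 with a pseudocount of 0.1, equal-sum scaling or voom, 0 without a filter, 4 with the side term and WT ethanol library 2 left out, and 0 to 3 without 1 library. For ethanol in LKO (0) it became 1 with the side term and that library left out. For LKO against WT on ethanol (0) it became 6 with array weights, 2 with the side term and that library left out, and 0 to 1 without 1 library. Under array weights, WT ethanol library 2 counted with 0.0418 and WT ethanol library 3 with 4.998, and the share of all genes called was then 38.4% for ethanol in WT and 30.7% for LKO against WT on ethanol. Without a filter more genes are tested.

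Signs changed only for log2 differences that were not called. With array weights, the ethanol difference in WT was 1.27 for Pck1, 0.047 for Fbp1 and 0.64 for Ppargc1a, that in LKO was 0.44 for G6pc and 0.030 for Irs2, that averaged was 0.16 for Ppargc1a, LKO against WT on the control diet was -0.011 for Slc2a2, and the interaction of Fbp1 was -0.30. With the side term and WT ethanol library 2 left out, the ethanol difference in WT was 0.0071 for Pck1 and 0.024 for Ppargc1a. LKO against WT on ethanol for Pck1 was 0.10 with median of ratios, 0.087 with equal sums and 0.031 with voom. The averaged ethanol difference of Irs2 was -0.089 with a pseudocount of 0.1, -0.041 with median of ratios and -0.060 with voom. Without 1 library, the ethanol difference in WT ran from -2.19 to 0.26 for Pck1, -0.68 to 0.26 for Khk, -0.43 to 0.089 for Ppargc1a and -0.24 to 0.74 for Irs2. In LKO it ran from -0.59 to 0.46 for G6pc and -0.50 to 0.048 for Irs2, and averaged from -0.26 to 0.21 for Khk and -0.21 to 0.28 for Irs2. LKO against WT ran from -0.031 to 0.75 for Pck1, -0.44 to 0.12 for G6pc, -0.20 to 0.75 for Igfbp1 and -0.17 to 0.29 for Slc2a2 on the control diet, and from -1.58 to 0.87 for Pck1 on ethanol. The interaction ran from -1.94 to 0.51 for Pck1, -0.11 to 0.83 for Khk, -0.51 to 0.0089 for Ppargc1a and -0.92 to 0.051 for Irs2. Except where a fit has fewer samples or more genes, the cause was not tested. No paired analysis was run, as no label states a pairing of libraries between groups. Some control and ethanol libraries of the same genotype and number have consecutive numbers in their titles. The labels do not say what these title numbers mean, and no block on them was fitted.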
